A study of Mus musculus with 192 samples.

Results

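Integrins are the receptors that dendritic cells use to hold on to matrix and to other cells, and ICAM-1 is the surface ligand by which other leukocytes hold on to them. The 8 genes described here are 7 integrin chains (Itgam, Itgax, Itgal, Itgb2, Itga4, Itga5 and Itgav) and Icam1. They were taken by name from the table of counts, without regard to their values, and are 8 of 23481 genes in it; all 8 were among the 4720 genes with enough counts to be tested. The cells were bone marrow-derived dendritic cells of female C57BL/6J mice aged 6 to 8 weeks, grown in GM-CSF at 15 ng/mL, a culture that is known to hold macrophages and granulocytes as well. They were kept for 6 hours with ligands of pattern recognition receptors. The ligands carry the labels' names: PAM, LPS, HMW, Zymosan (given there as Zymosan depleted), SeV, cGAMP (given as 3',3'-cGAMP) and CpGB. Ctrl, the 7 single ligands, all 21 pairs and all 35 triplets made 64 groups of 3 libraries each. Doses, and the animals or cultures behind each library, were not given in the labels used here, so p-values measure the spread between these libraries, which may be technical.

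An integrin is a pair of an alpha and a beta chain. Itgb2 codes for the beta-2 chain (CD18), which pairs with alpha-M (CD11b, coded by Itgam) to form the complement receptor Mac-1, with alpha-X (CD11c, coded by Itgax) to form the other complement receptor of myeloid cells, and with alpha-L (CD11a, coded by Itgal) to form LFA-1, the main receptor for ICAM-1. The alpha-4 chain binds VCAM-1 and fibronectin, alpha-5 binds fibronectin, and alpha-V binds vitronectin and other ligands that carry an RGD sequence and can activate latent TGF-beta. Icam1 is a classical target of NF-kappaB and of interferon-gamma.

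In RefSeq's annotation of mouse build GRCm38.p6, the alpha-L, alpha-M and alpha-X genes lie on chromosome 7, with Itgal at chr7:127296139-127335137, Itgam at chr7:128062640-128118491 and Itgax at chr7:128129526-128150657. Itgb2 lies at chr10:77530329-77565708, Itga4 at chr2:79255426-79333114, Itgav at chr2:83722303-83806917, Itga5 at chr15:103344286-103366791 and Icam1 at chr9:21015940-21028814. The Itga4 gene overlaps Cerkl, which had 47 unique molecular identifiers (UMIs) summed over all libraries. The promoter of Icam1 is shown because Icam1 changed with 5 of the 7 ligands given alone and because it holds a match to a motif of NF-kappaB, named above. It is the 250 bases before the RefSeq start, chr9:21015690-21015939 on the plus strand, with the motif match in capitals.
Icam1 promoter: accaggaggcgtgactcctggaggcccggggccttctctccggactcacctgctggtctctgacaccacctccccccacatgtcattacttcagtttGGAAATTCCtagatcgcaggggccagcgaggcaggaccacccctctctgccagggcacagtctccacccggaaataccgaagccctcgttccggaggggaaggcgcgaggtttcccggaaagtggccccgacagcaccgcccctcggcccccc
The match, GGAAATTCC, is an NF-kappaB-type motif and begins 153 bases before the RefSeq start; the last bases of this window were not found in an annotated Icam1 transcript of GENCODE, so the distance holds for the RefSeq start alone. This motif was searched on both strands, and so was an interferon-response pattern made of GAAA, any 2 bases and GAAA again. The windows searched had 300 bases, 250 before and 50 after each start. Over 32851 mouse promoters of that length, 0.317% held the NF-kappaB-type motif and 3.44% the interferon-response pattern. Of the 6 members with a promoter in the table, the NF-kappaB-type motif was found in Icam1 alone, and the interferon-response pattern in none. No other motif was searched, so other sites for interferon-gamma signalling were not looked for. The motifs were chosen after the Icam1 window had been read, and a match is not evidence of binding.

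The libraries held 46564 to 610234 UMIs, with a median of 171616.5, and the Ctrl libraries were the shallowest group on average, with 73431 ± 14389 (SD, n = 3). The Ctrl libraries also stood apart from the rest: over the 1000 most variable genes their correlation with their own group was the lowest of all, 0.789 to 0.806 against a median of 0.935, and each matched the HMW group best. With RLE factors or library size alone in place of TMM factors, the median log2 fold change of all tested genes moved from −0.05 to −0.21 and −0.42. Every fold change against Ctrl below rests on these 3 libraries, and the 63 comparisons share them. Dendritic cell markers summed to group means of 6113 to 8437 CPM (UMIs scaled to a common library total), with UMIs for all 8 markers listed. Nearly all of that sum was MHC class II genes, Cd74 and Itgax, itself a member, whereas Flt3, Zbtb46 and Dpp4 had 95, 99 and 103 UMIs in 68 to 71 libraries. Markers of macrophages summed to 1444 to 3995 CPM and markers of neutrophils to 476 to 924 CPM, so the cultures were mixed. T-cell, NK-cell, erythroid and fibroblast markers were at or near 0, with no group mean above 7.5 CPM, and markers of mast cells and B cells stayed at or below 15.6 and 18.7 CPM. In such bulk samples, fewer cells of a type and less RNA per cell cannot be told apart. Levels are CPM on TMM-scaled library sizes. A difference from Ctrl was called where its adjusted p was under 0.05 (edgeR's quasi-likelihood test, Benjamini-Hochberg over all tested genes) and its fold change at least 2.

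Given alone, most ligands raised Itga4 and Icam1, and PAM, LPS and CpGB also raised Itgal and Itga5. Itgb2, Itgax and Itgav had no call. Over the 7 single ligands, Itga4 and Icam1 were each called higher with 5, Itgal and Itga5 with 3, and Itgam was called lower with 1. Over all tested genes, 8.7% of such comparisons were called higher and 4.95% lower. PAM, LPS and CpGB each raised 4 members, SeV and cGAMP 2 each, and HMW and Zymosan none. Of all tested genes, 8.01% were called higher and 5.89% lower with PAM, against 14.6% and 9.6% with LPS, 0.953% and 0.0212% with HMW, 4.43% and 1.82% with Zymosan, 10.5% and 5.13% with SeV, 11.7% and 5.91% with cGAMP and 10.8% and 6.27% with CpGB.

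**Figure D1:**
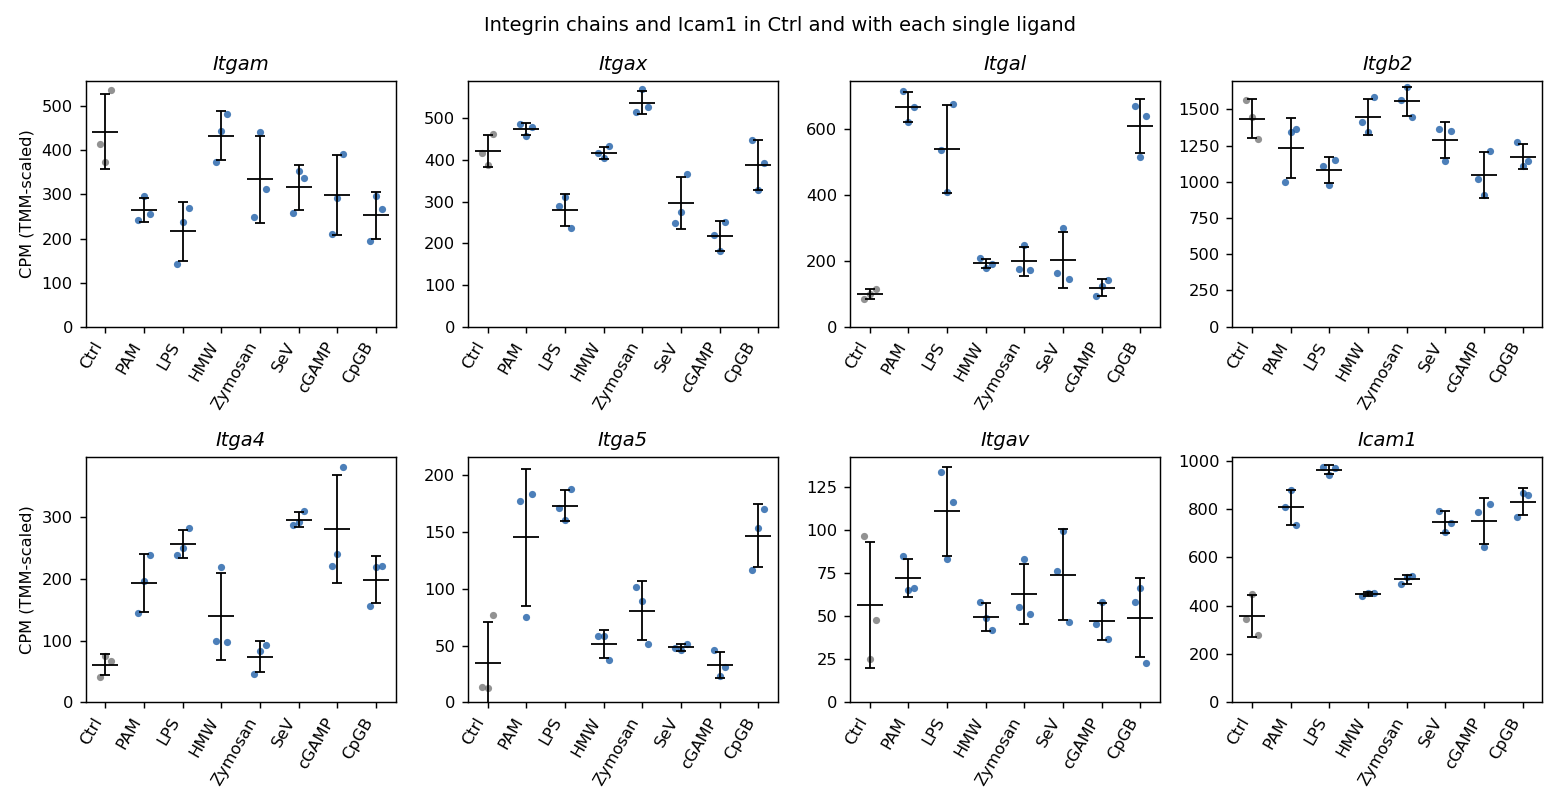
Expression of the 8 members in Ctrl (grey) and with each single ligand (blue), in CPM on TMM-scaled library sizes; points are libraries, the horizontal bar is the mean and the whiskers are 1 SD (n = 3), cut at 0. Itgal rose from 99.4 CPM in Ctrl to 541 CPM or more with PAM, LPS and CpGB, whereas Itgb2 stayed between 1046 and 1554 CPM.

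Among the beta-2 family, Itgal, the alpha chain of LFA-1, moved most. Its level in the Ctrl libraries was 83.1, 99.8 and 115 CPM. With PAM it was 715, 623 and 667 CPM, which is 2.71 higher on the log2 scale (SE 0.26, adjusted p 4.506e-19 by edgeR). With LPS it was 536, 410 and 676 CPM, and with CpGB 670, 516 and 641 CPM. All 9 of these libraries lay above all Ctrl libraries (16.6% of all gene comparisons with single ligands did so), and the groups of PAM, CpGB and LPS overlapped one another. The log2 fold change was 2.42 (SE 0.27) with LPS and 2.57 (SE 0.26) with CpGB. A smaller difference was seen with SeV (202 ± 84.1 CPM), Zymosan (199 ± 43.8 CPM) and HMW (193 ± 14.4 CPM; SD, n = 3 each), where every library was above Ctrl but the fold change was below 2. The changes with SeV and Zymosan were close to 2-fold and were called in 8 and 5 of the alternatives, among them no filter on low counts (log2 fold change 1.17 and 1.15), and for SeV without Ctrl replicate 2 or 3 (1.01 and 1.15) and without SeV replicate 1 or 3 (1.11 and 1.32). With cGAMP the level was 119 ± 25.0 CPM and overlapped Ctrl.

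Itgb2, the beta chain that these alpha chains share, showed no call in any of the 63 conditions. Its level was 1565, 1447 and 1296 CPM in the Ctrl libraries. It was 1018, 906 and 1215 CPM with cGAMP, which was below every Ctrl library, at −0.45 against Ctrl on the log2 scale (SE 0.13, adjusted p 0.006808 by edgeR). With LPS it was 1109, 981 and 1150 CPM, again below Ctrl throughout, with a log2 fold change of −0.40 (SE 0.13). With Zymosan it was 1554 ± 103 CPM, a level that overlapped Ctrl. The differences of Itgb2 were thus small against a 2-fold threshold. Its SD within groups was 0.143 on the log2 scale, against a median of 0.459 over all tested genes, which were not matched to Itgb2 in level.

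Itgam, the CD11b gene, was called lower with 1 single ligand, LPS. It was 416, 374 and 538 CPM in Ctrl and 141, 238 and 269 CPM with LPS, and fell by 1.00 on the log2 scale (SE 0.25, adjusted p 0.0004924 by edgeR), just past the 2-fold minimum. The call was lost with no filter on low counts (−0.76), without LPS replicate 1, the lowest library (−0.72), without LPS replicate 2 (−0.96), and without Ctrl replicate 3, the highest (−0.75). The PAM libraries (265 ± 28.1 CPM) and the CpGB libraries (253 ± 52.6 CPM) also lay below every Ctrl library. Their log2 fold changes were −0.75 (SE 0.24) and −0.78 (SE 0.24), short of 2-fold. That with CpGB was called with library size alone (−1.004) and when all libraries were thinned to the smallest total (−1.05), as was that with cGAMP when thinned (−1.08), so which ligands lowered Itgam depends on the setting.

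Itgax, the CD11c gene that serves as the usual marker of these cells, did not pass the 2-fold minimum with any single ligand. Its level in Ctrl was 416, 387 and 461 CPM. With cGAMP it was 220, 181 and 252 CPM, at −0.96 against Ctrl on the log2 scale (SE 0.25, adjusted p 0.001332 by edgeR). It passed 2-fold where the scaling was changed, at −1.09 with RLE factors and −1.21 with library size alone, and at −1.04 without cGAMP replicate 3; with LPS it was called when thinned (−1.06). With Zymosan it was 515, 570 and 527 CPM, above every Ctrl library, but with an adjusted p of 0.3839 (edgeR). Zymosan and cGAMP thus gave the highest and the lowest Itgax of the single ligands, at 537 ± 28.5 and 218 ± 35.3 CPM.

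Itga4, whose product binds VCAM-1 and fibronectin, was highest with SeV and cGAMP. It was 41.6, 74.8 and 67.2 CPM in Ctrl, from 16 UMIs in all 3 libraries. With SeV it was 287, 291 and 310 CPM, 2.24 higher on the log2 scale (SE 0.32, adjusted p 1.128e-09 by edgeR). With cGAMP it was 220, 240 and 381 CPM, a log2 fold change of 2.18 (SE 0.32). LPS followed with 256 ± 22.7 CPM, CpGB with 199 ± 37.6 CPM and PAM with 193 ± 47.4 CPM, all of them called higher. HMW gave 99.8, 220 and 97.6 CPM, where 1 library was far above the other two, and the change was not called (log2 fold change 1.21, SE 0.36, adjusted p 0.0562 by edgeR). Without HMW replicate 1 or 3, the low ones, it would have been called (log2 fold change 1.40 and 1.49). Zymosan gave 74.2 ± 24.9 CPM and overlapped Ctrl.

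Itga5, the alpha chain of the fibronectin receptor, rose with the same 3 ligands as Itgal. Its level in Ctrl was 13.9, 12.5 and 76.8 CPM from 10 UMIs in all, so replicate 3 of Ctrl alone set the upper end. With LPS it was 171, 161 and 188 CPM, 2.15 higher on the log2 scale (SE 0.43, adjusted p 1.159e-05 by edgeR). With CpGB it was 116, 153 and 171 CPM, a log2 fold change of 1.95 (SE 0.44). Both groups lay above every Ctrl library. With PAM it was 177, 75.4 and 183 CPM, so 1 PAM library fell within the Ctrl range, and the log2 fold change was 1.86 (SE 0.44, adjusted p 0.0005588 by edgeR). With cGAMP Itga5 was 33.3 ± 11.5 CPM, close to the Ctrl mean of 34.4 ± 36.7 CPM. Without Ctrl replicate 3, Itga5 with Zymosan was also called higher, at 2.50 on the log2 scale (adjusted p 0.04254 by edgeR), so the count of 3 ligands rests on that library.

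Itgav, the alpha-V chain, had no call with a single ligand and was measured from 14 to 59 UMIs a group. Its level in Ctrl was 97.0, 24.9 and 48.0 CPM. With LPS it was 134, 83.1 and 116 CPM, 1.00 higher on the log2 scale (SE 0.46, adjusted p 0.09356 by edgeR), and the groups overlapped. Without Ctrl replicate 1, the highest, the rise with LPS was called (1.56 on the log2 scale, adjusted p 0.03158 by edgeR), and likewise without LPS replicate 2 (1.25). The other 6 ligands gave means of 47.0 to 74.3 CPM.

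Icam1, the counter-receptor of LFA-1 and Mac-1, was called higher with every ligand but HMW and Zymosan. Its level in Ctrl was 346, 449 and 278 CPM. With LPS it was 975, 942 and 971 CPM, 1.45 higher on the log2 scale (SE 0.20, adjusted p 9.797e-11 by edgeR). LPS gave the highest level, and its libraries did not overlap those of CpGB (831 ± 55.8 CPM), which came next. PAM gave 807 ± 73.2 CPM, cGAMP 751 ± 95.5 CPM and SeV 747 ± 44.3 CPM, and the libraries of neighbours in this order overlapped from CpGB to SeV. With Zymosan Icam1 was 488, 518 and 523 CPM, above every Ctrl library and below every SeV library, with an adjusted p of 0.1063 (edgeR). HMW gave 448 ± 6.51 CPM and overlapped Ctrl. The calls with SeV (log2 fold change 1.08, SE 0.21) and cGAMP (1.08, SE 0.21) lay close to 2-fold and fell short of it with RLE factors (both 0.96), with library size alone (0.89 and 0.84) and without Ctrl replicate 3 (0.96 and 0.98), with adjusted p at or under 0.001151 by edgeR in these. Both calls also fell short with DESeq2 (both 0.96) and without replicate 3 of all groups (0.91 and 0.83, adjusted p 0.005799 and 0.01036 by edgeR). With all libraries thinned to the smallest total, the changes with PAM (0.95), SeV (0.75) and CpGB (0.69) were below 2-fold. That with cGAMP then failed the adjusted p as well (0.54, adjusted p 0.09971 by edgeR), which left LPS.

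Over all 63 conditions Itga4, Itgal, Itga5 and Icam1 carried most of the calls. Itga4 was called higher in 54, Itgal in 48, Itga5 in 47, Icam1 in 35 and Itgav in 13, and none of these 5 was called lower in any. Itgam was called lower in 11 conditions and Itgax in 2, and neither was called higher. Over all tested genes 14.3% of the 63 comparisons were called higher and 9.03% lower. Without the 2-fold minimum, Itgam was lower in 53 conditions, Itgb2 in 39 and Itgax in 25, where 11.8% of all gene comparisons were lower. All 3 libraries lay below all Ctrl libraries in 58 conditions for Itgam and in 42 for Itgb2 (17.8% of all gene comparisons). These counts all use the same Ctrl libraries and are not independent of each other.

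**Figure D2:**
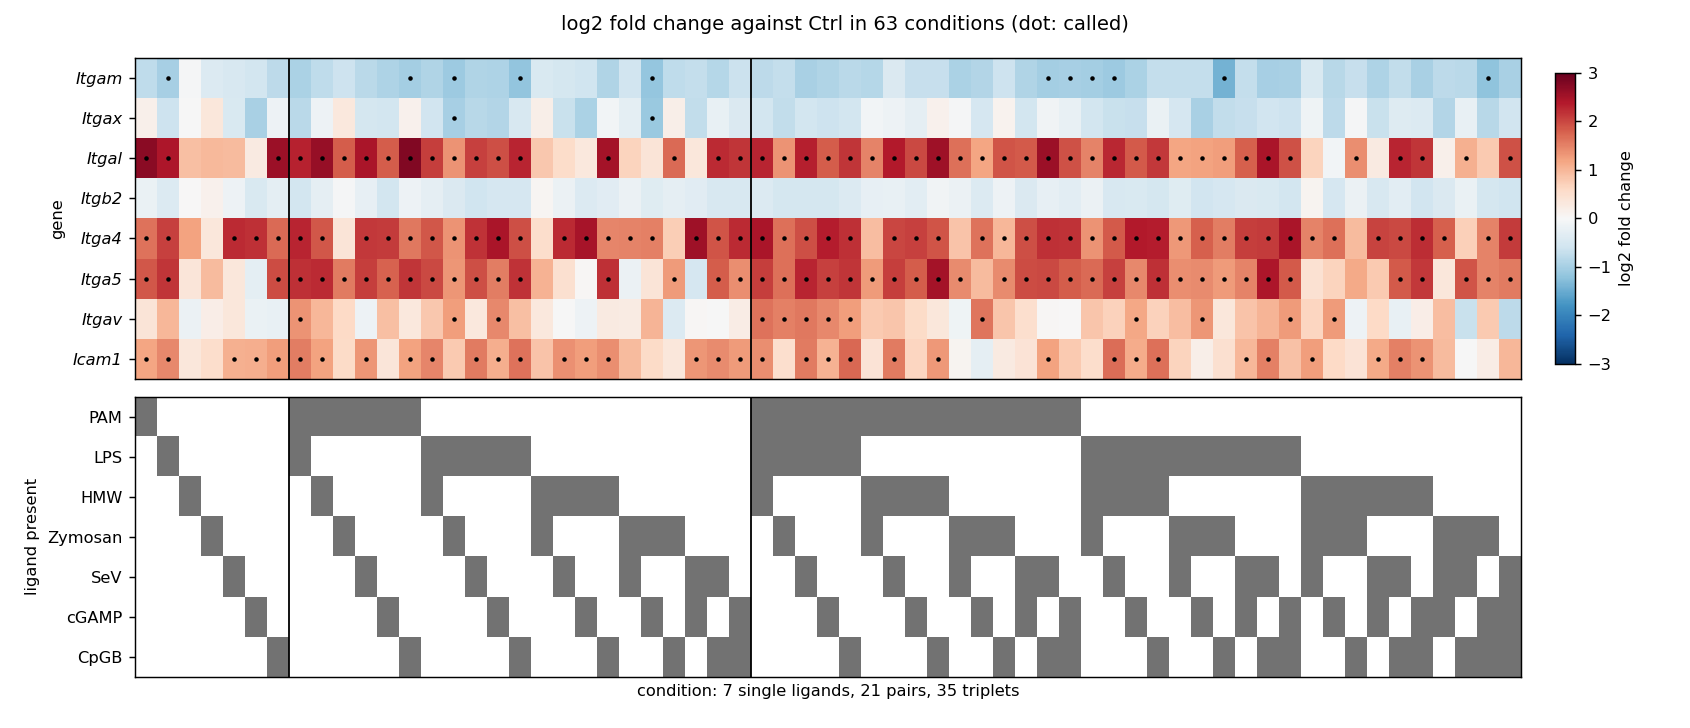
Log2 fold change against Ctrl (colour, from −3 in blue to 3 in red) for the 8 members (rows) in 7 single ligands, 21 pairs and 35 triplets (columns, separated by lines), with the ligands present in each condition in grey below; dots mark calls. Itgal, Itga4, Itga5 and Icam1 carry dots in 35 to 54 conditions each, and Itgb2 in none.

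Only pairs were tested against their single ligands. Itgal reached its highest pair level with PAM + CpGB (690 ± 98.7 CPM) and its highest triplet level with PAM + SeV + CpGB (599 ± 21.4 CPM), against 668 ± 45.9 CPM with PAM alone. Icam1 was highest among pairs with LPS + CpGB (1074 ± 161 CPM) and among triplets with PAM + LPS + CpGB (1160 ± 97.6 CPM), against 963 ± 18.0 CPM with LPS alone. Itga4 was highest with SeV + cGAMP (361 ± 33.8 CPM) and with LPS + cGAMP + CpGB (347 ± 54.8 CPM). Of the members, none exceeded both single ligands of a pair by 2-fold, and none fell below both by 2-fold; over all genes 0.353% of such comparisons were above and 0.0504% below. With no fold minimum, 1 was below both (0.0999% of all gene comparisons): Icam1 was 459, 424 and 472 CPM with PAM + cGAMP, below 807 ± 73.2 CPM with PAM and 751 ± 95.5 CPM with cGAMP (adjusted p 0.003156 by edgeR, larger p of both comparisons). The difference of that pair from Ctrl did not pass the test (log2 fold change 0.35, SE 0.22, adjusted p 0.2244 by edgeR).

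At the low end, Itgal was 125 ± 20.2 CPM with HMW + cGAMP and 95.6 ± 31.2 CPM with HMW + Zymosan + cGAMP, next to 99.4 ± 16.1 CPM in Ctrl. Icam1 was 440 ± 58.4 CPM with Zymosan + CpGB and 295 ± 36.3 CPM with PAM + Zymosan + cGAMP, where no call against Ctrl was made. Itga4 was lowest with PAM + Zymosan (83.0 ± 24.2 CPM) and Zymosan + SeV + CpGB (101 ± 26.0 CPM). Itgam was lowest with LPS + CpGB (197 ± 17.8 CPM) and LPS + Zymosan + CpGB (164 ± 49.3 CPM), and highest with HMW + Zymosan (325 ± 41.1 CPM) and PAM + HMW + SeV (333 ± 2.64 CPM). Itgax ran from 191 ± 59.6 CPM with Zymosan + cGAMP to 524 ± 44.5 CPM with PAM + Zymosan among pairs, and from 217 ± 52.9 CPM with LPS + Zymosan + cGAMP to 463 ± 80.0 CPM with PAM + HMW + CpGB among triplets. Itgb2 was lowest with LPS + SeV (953 ± 63.3 CPM) and SeV + cGAMP + CpGB (934 ± 128.1 CPM), and highest with HMW + Zymosan (1499 ± 82.4 CPM) and HMW + Zymosan + SeV (1501 ± 167 CPM).

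The 2 other alpha chains reached their highest levels in combinations with PAM or LPS. Itga5 was highest with PAM + HMW (186 ± 29.5 CPM) and PAM + HMW + CpGB (227 ± 40.6 CPM), and lowest with SeV + cGAMP (24.4 ± 20.2 CPM) and Zymosan + SeV + cGAMP (49.6 ± 17.8 CPM). Itgav was highest with LPS + cGAMP (153 ± 13.2 CPM) and PAM + LPS + HMW (171 ± 23.2 CPM), and lowest with Zymosan + CpGB (38.7 ± 18.2 CPM) and SeV + cGAMP + CpGB (32.5 ± 20.8 CPM). With PAM + Zymosan + cGAMP Itgav was 136, 147 and 217 CPM, above every library of PAM, Zymosan or cGAMP alone (36.8 to 85.3 CPM), a difference that was not tested. All of the 3 pairs in which Itgav was called higher (13.7% of all gene comparisons with pairs) contained LPS.

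The average effect of a ligand is the mean log2 difference that its addition made over the 22 backgrounds without it: Ctrl, 6 single ligands and 15 pairs. It draws on all libraries, and Ctrl is only 1 of the backgrounds. Over all genes and ligands, 21.1% of these effects were called positive and 19.2% negative, here by an adjusted p below 0.05 alone. PAM, LPS and CpGB raised Itgal by 0.74, 0.47 and 0.68 and Itga5 by 0.86, 0.81 and 0.79 on this log2 scale (SE 0.04 to 0.07). These means cover unlike steps in the 21 backgrounds other than Ctrl. For Itgal the steps ran from −0.23 to 1.84 with PAM, −0.62 to 1.72 with LPS and −0.16 to 1.88 with CpGB. For Itga5 they ran from −0.03 to 2.47, −0.16 to 1.99 and −0.12 to 2.08. LPS raised Itgav by 0.87 (SE 0.08), the only average effect on Itgav above 0.5. cGAMP raised Itga4 by 0.57 (SE 0.05) and lowered Itgal by 0.49 (SE 0.05) and Itgax by 0.43 (SE 0.05). LPS lowered Itgax by 0.38, Itgam by 0.28 and Itgb2 by 0.23. On Icam1 the average effect was 0.20 with LPS and 0.14 with SeV, but −0.25 with cGAMP and −0.14 with PAM (SE 0.04 each, adjusted p 0.0007797 for PAM by edgeR). With library size alone those with LPS and SeV did not pass (both 0.07, adjusted p 0.06785 and 0.08814 by edgeR), nor did that with SeV when thinned (0.08).

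Markers of other cells moved with these ligands as well. Of the 4 macrophage markers tested, LPS raised 2 and lowered 2, with average effects that included −0.95 on Csf1r, 0.78 on Fcgr1 and 0.61 on Cd14. PAM gave 1.40 on Cd14, −0.53 on Fcgr1 and −0.34 on Csf1r, CpGB gave 0.43 on Cd14 and −0.54 on Csf1r, SeV gave 1.09 on Fcgr1, −0.24 on Csf1r and −0.21 on Cd14, and cGAMP gave −0.55 on Csf1r, −0.37 on Cd14 and 0.51 on Fcgr1. The markers of the macrophage list thus did not move in one direction with any of these 5 ligands. Summed, they ran from 1917 to 3995 CPM over groups with PAM and from 1444 to 2640 CPM without it, from 1449 to 2963 CPM with LPS and 1444 to 3995 CPM without it, from 1444 to 2738 CPM with cGAMP and 1449 to 3995 CPM without it, from 1444 to 3305 CPM with CpGB and 1491 to 3995 CPM without it, and from 1444 to 3746 CPM with SeV and 1449 to 3995 CPM without it. Of the 5 neutrophil markers tested, LPS raised 4 and lowered Retnlg (−1.02), and PAM raised 1 and lowered Retnlg (−1.02). cGAMP raised Ngp (0.19), CpGB raised S100a8 (0.15) and SeV lowered S100a9 (−0.11). Of the 5 dendritic cell markers tested, which include the member Itgax, PAM raised 5, CpGB raised 4, and LPS raised 4 and lowered Itgax. SeV raised 1 and lowered Itgax, and cGAMP lowered Itgax alone. The part of these cells in the changes of the integrins and Icam1 was not tested.

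Zymosan lowered 4 members on average. The average effect of Zymosan was −0.72 (SE 0.05, adjusted p 2.415e-29) on Itga4, −0.68 (SE 0.04, adjusted p 2.747e-44) on Icam1, −0.63 (SE 0.05, adjusted p 2.669e-27) on Itgal and −0.22 (SE 0.08, adjusted p 0.0148) on Itga5, all by edgeR. The first 3 passed the threshold in all 9 alternative settings run, and the effect on Itga5 did not in 4 of them, among them the fit without replicate 3 of all groups (−0.12, adjusted p 0.4474). It raised Itgav by 0.26 (SE 0.09), which also did not pass without replicate 3 (0.22, adjusted p 0.1509 by edgeR). For this contrast 20.4% of all tested genes were lower and 21.3% higher. HMW had 1 called average effect among the members, a rise of Itga5 by 0.21 (SE 0.07) that did not pass in 5 of the 9 alternatives, among them RLE factors (adjusted p 0.0602, edgeR), where 7.94% of all tested genes were higher. Its effect on Icam1 passed in 3 of the alternatives, at 0.14 with no filter on low counts.

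**Figure D3:**
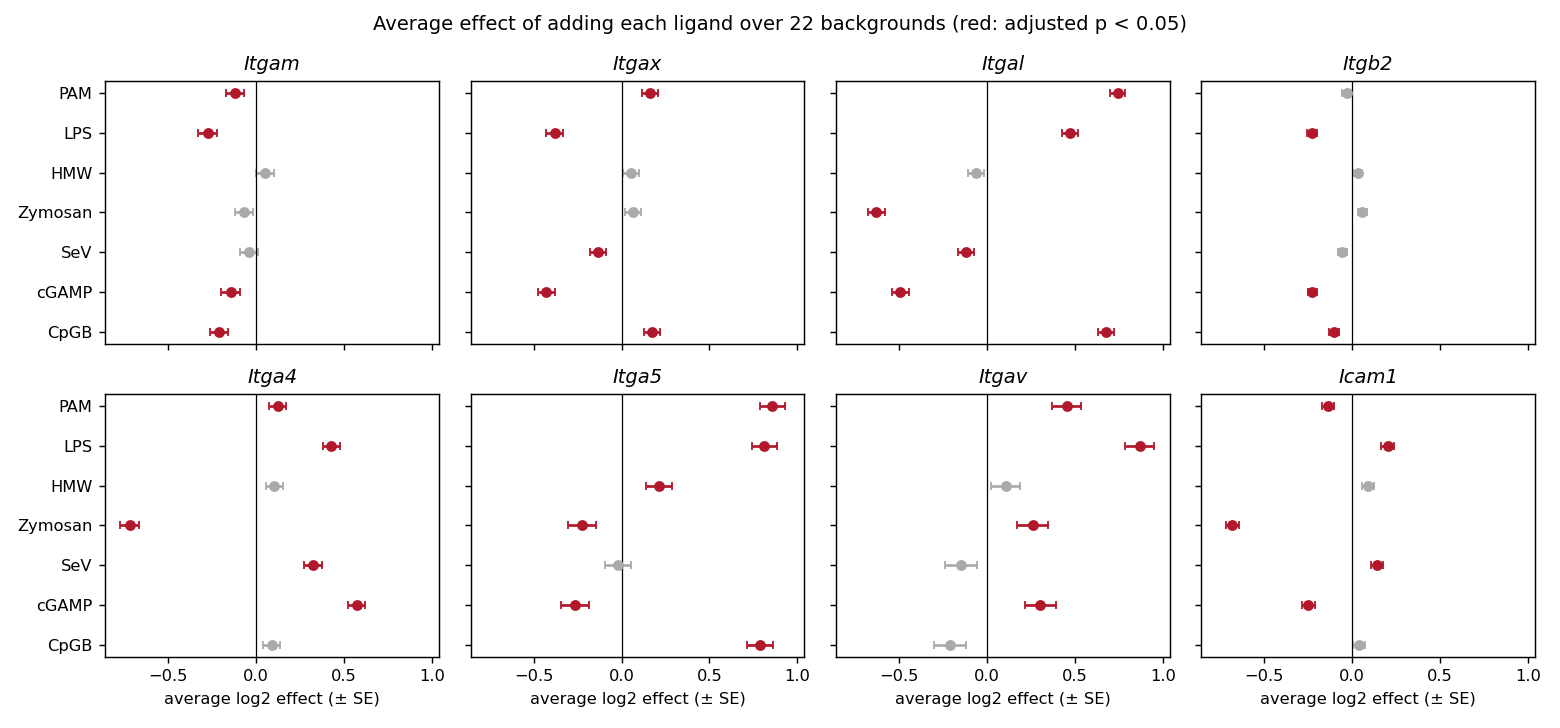
Average log2 effect (x axis, ± SE) of adding each ligand (y axis) over 22 backgrounds, with 1 panel per gene; red points passed an adjusted p of 0.05 and grey points did not. For Zymosan, Itga4, Icam1 and Itgal lie between −0.72 and −0.63, whereas Itgax, Itgb2 and Itgam lie within 0.07 of 0.

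Adding Zymosan was then followed through each of the 21 backgrounds that already held 1 or 2 other ligands, a comparison chosen after the data had been seen and one that uses no Ctrl library. Icam1 was lowered in 15 of the 21 backgrounds at an adjusted p under 0.05 (edgeR), Itgal in 14, Itga4 in 13 and Itga5 in 2, where 1.91% of all such gene comparisons were lower. For Itga4 the count was 10, 7 and 4 when replicate 1, 2 or 3 of all groups was left out, against 11 to 14 for Icam1 and Itgal. The fall was at least 2-fold in 5 backgrounds for Icam1, 6 for Itgal, 3 for Itga4 and 1 for Itga5 (0.853% of all gene comparisons). All 3 libraries with Zymosan lay below all 3 without it in 17 backgrounds for Icam1, 15 for Itgal and 17 for Itga4 (9.72% of all gene comparisons). The sign was negative for Itga4 in all 21 backgrounds, for Icam1 in 20 and for Itgal in 19. Itgam, Itgax and Itgb2 had no call in either direction in these 21 backgrounds.

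The largest falls brought Icam1 into its Ctrl range and left Itgal above its own. Icam1 was 1024, 761 and 1031 CPM with SeV + CpGB and 368, 374 and 313 CPM once Zymosan was added, a log2 difference of −1.42 (SE 0.19, adjusted p 7.837e-10 by edgeR). The Ctrl libraries held 278 to 449 CPM of Icam1, which spans the levels with Zymosan + SeV + CpGB. Itgal was 374, 464 and 496 CPM with cGAMP + CpGB and 148, 175 and 198 CPM with Zymosan added, a log2 difference of −1.36 (SE 0.22, adjusted p 9.601e-07 by edgeR). All 3 of these libraries with Zymosan still lay above every Ctrl library (83.1 to 115 CPM). Itga4 was 254, 302 and 259 CPM with PAM + SeV and 121, 100 and 114 CPM with Zymosan added, a log2 difference of −1.28 (SE 0.24, adjusted p 2.389e-05 by edgeR). In none of these did the libraries with Zymosan overlap those without it.

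Zymosan did not lower these genes in every background. Given to Ctrl cells it left Icam1 at a log2 fold change of 0.54 (SE 0.22) and Itgal at 0.97 (SE 0.32, adjusted p 0.03412 by edgeR), both positive and the second past the adjusted p without a fold minimum. Added to HMW it raised Icam1 from 441, 453 and 451 CPM to 534, 685 and 686 CPM (log2 difference 0.51, SE 0.17, adjusted p 0.02818 by edgeR), the only called rise of Icam1, Itgal, Itga4 or Itga5 in the 21 backgrounds without Ctrl, where 3.91% of all gene comparisons were higher. Added to SeV it left Icam1 at 670 CPM from 747 CPM, a difference that did not pass the test (adjusted p 0.7705, edgeR). The falls of Itgal were called wherever PAM, LPS or CpGB was in the background, except with PAM + cGAMP (361 CPM without and 235 CPM with Zymosan, adjusted p 0.06677, edgeR). In the 6 backgrounds made only of HMW, SeV and cGAMP, where Itgal was between 119 and 202 CPM before the addition, none was called. In contrast, Itga4 fell in the backgrounds SeV, cGAMP, HMW + SeV, HMW + cGAMP and SeV + cGAMP, for example from 297.5 to 178.5 CPM with HMW + SeV. Whether the response to Zymosan differs between backgrounds is tested only for Ctrl, by the pair interactions given below.

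**Figure D4:**
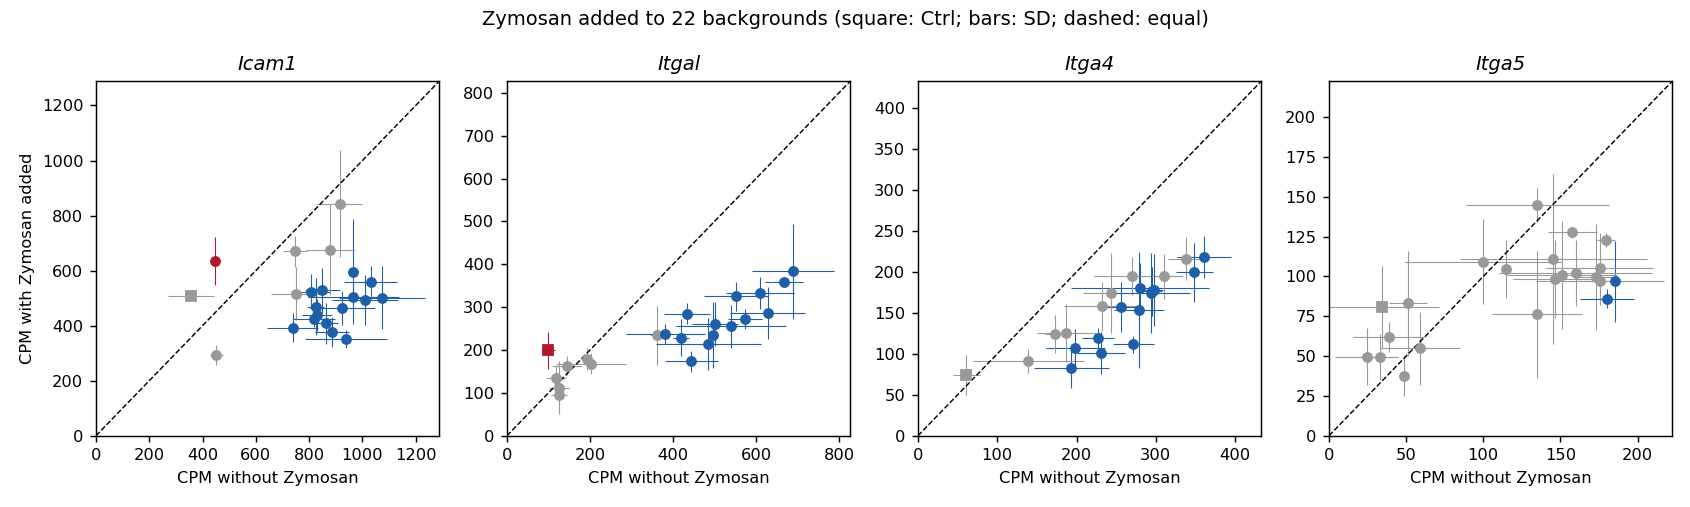
Level with Zymosan added (y axis, CPM) against the level without it (x axis, CPM) for Icam1, Itgal, Itga4 and Itga5 in 22 backgrounds; points are means of 3 libraries, bars are 1 SD, the square is Ctrl and the dashed line marks equal levels. Blue points were lowered and red points raised at an adjusted p of 0.05, and 15 Icam1, 14 Itgal and 13 Itga4 backgrounds are blue.

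Markers of other cells differed with Zymosan too. The summed neutrophil markers had a median over groups of 713 CPM with Zymosan and 782 CPM without it, and the macrophage markers 2038 and 2240 CPM. Of the 4 macrophage markers tested it lowered 2, Csf1r by 0.25 and Fcgr1 by 0.27 on average, and of the 5 neutrophil markers it lowered S100a9 by 0.10. The part of these cells in the falls of Icam1, Itgal and Itga4 was not tested. The summed dendritic cell markers had medians of 7203 and 7319 CPM, and of their 5 tested markers Zymosan raised 3 on average (Cd74 by 0.10, H2-Eb1 by 0.08 and H2-Aa by 0.07 on the log2 scale) and lowered 0.

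cGAMP and PAM also lowered Icam1 in part of the backgrounds. cGAMP lowered Icam1 in 9 of the 21 backgrounds and raised it in 1, where 4.22% of all gene comparisons were lower and 7.54% higher. All 6 backgrounds of PAM alone or of PAM with LPS, HMW, Zymosan, SeV or CpGB were among the 9, and the other 3 were LPS + Zymosan, LPS + SeV and LPS + CpGB. With PAM + SeV, for instance, Icam1 went from 887 to 478 CPM (log2 difference −0.90, SE 0.17, adjusted p 1.287e-05 by edgeR). Conversely, cGAMP added to HMW raised Icam1 from 448 to 850 CPM (log2 difference 0.91, SE 0.16). PAM lowered Icam1 in 6 of the 21 backgrounds and raised it in 1, HMW, where 2.35% of all gene comparisons were lower and 3.95% higher. The 6 were cGAMP, HMW + cGAMP, Zymosan + cGAMP, SeV + cGAMP, HMW + Zymosan and Zymosan + SeV, and with SeV + cGAMP the level went from 880 to 477.5 CPM (log2 difference −0.91, SE 0.16). cGAMP lowered Itgal in 7 backgrounds and raised Itga4 in 6. The rise of Itga4 was at least 2-fold (5.36% of all gene comparisons) in 4 of those 6 (HMW, Zymosan, PAM + Zymosan and HMW + Zymosan), for example from 83.0 to 195 CPM with PAM + Zymosan.

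Itgax fell in part of the backgrounds to which LPS, cGAMP or SeV was added. LPS lowered it in 7 of 21 backgrounds (5.4% of all gene comparisons) and cGAMP in 6. SeV lowered it on PAM, HMW and Zymosan (log2 differences −0.68, −0.63 and −0.64, SE 0.21 each). The falls past 2-fold included those with LPS and cGAMP on Zymosan, from 537 to 213 CPM with LPS (log2 difference −1.35, SE 0.21) and to 191 CPM with cGAMP (log2 difference −1.46, SE 0.22). LPS raised Itgav in 7 backgrounds (8.33% of all gene comparisons), the largest being from 45.2 to 165 CPM with PAM + SeV (log2 difference 1.73, SE 0.40, adjusted p 0.0039 by edgeR), a triplet in which 1 library at 268 CPM was more than 2-fold above the other two, at 111 and 117 CPM.

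A pair interaction is the log2 effect of a pair minus the sum of the effects of its single ligands, so that a negative value is less than additive on the log2 scale. All called interactions of the members were negative. They numbered 14 of 21 for Icam1, 11 for Itga4, 8 for Itgal and 3 for Itga5, with none for Itgam, Itgax, Itgb2 or Itgav; over all genes 3.5% were negative and 1.08% positive. The largest were −2.83 (SE 0.31, adjusted p 2.435e-14) for Itgal with PAM + LPS, −2.12 (SE 0.39, adjusted p 4.887e-06) for Itga4 with LPS + SeV, −1.93 (SE 0.52, adjusted p 0.003603) for Itga5 with LPS + CpGB and −1.92 (SE 0.27, adjusted p 1.156e-08) for Icam1 with PAM + cGAMP, all by edgeR. In the first of these, Itgal was 528.5, 438 and 539 CPM with PAM + LPS, no higher than 668 ± 45.9 CPM with PAM or 541 ± 133 CPM with LPS, so the pair was near the single ligands and not at the sum of their effects.

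Zymosan interacted negatively with PAM, LPS and CpGB on Itgal (−1.86, −2.06 and −1.83) and with PAM, LPS, cGAMP and CpGB on Icam1 (−1.16, −1.21, −1.05 and −1.45). On Itga4 the interaction of Zymosan was called with PAM alone (−1.59, SE 0.49, adjusted p 0.03558 by edgeR). Each of these sets the effect of Zymosan beside a second ligand against its effect in Ctrl cells.

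**Figure D5:**
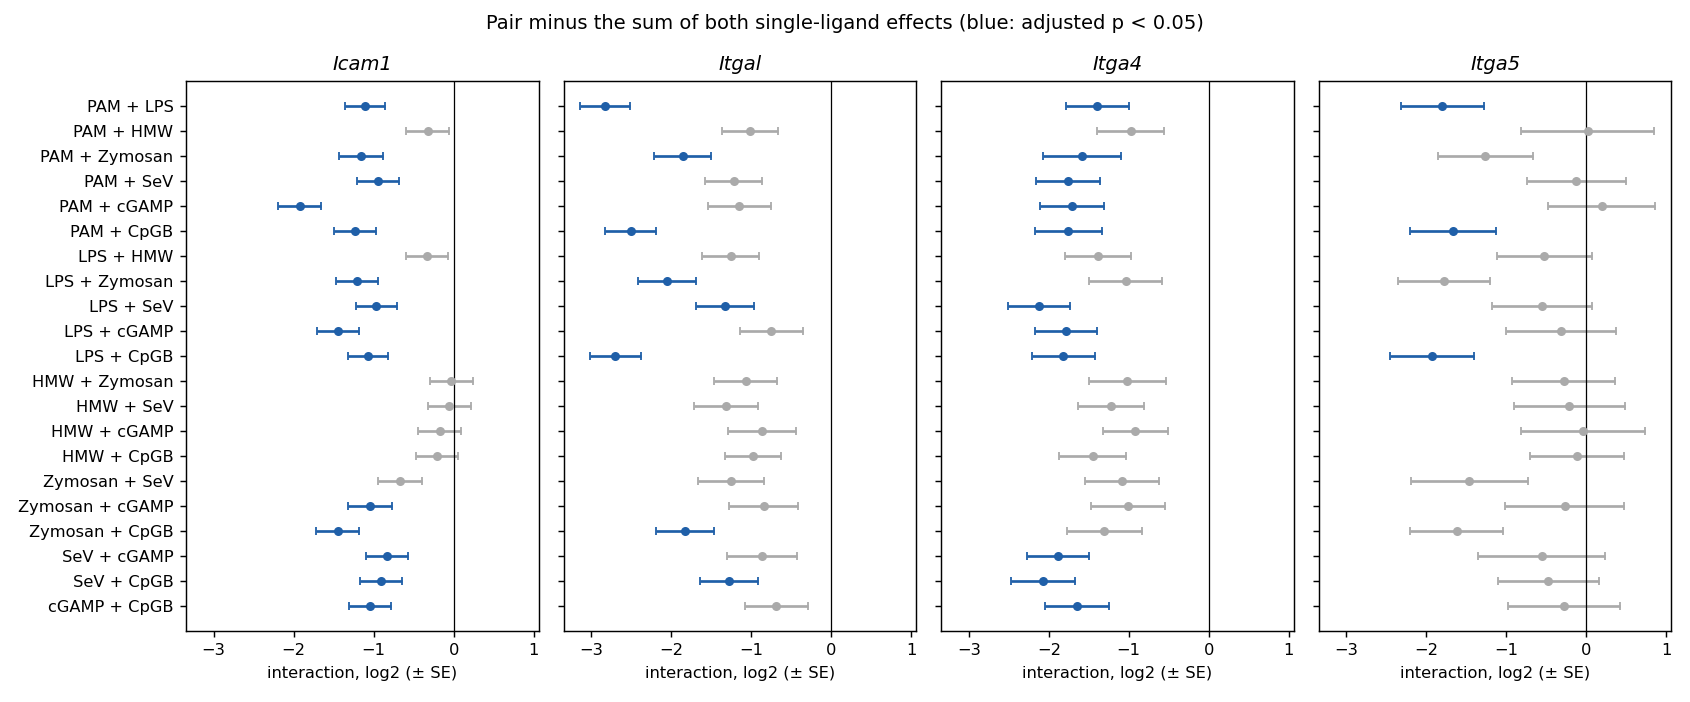
Pair interaction on the log2 scale (x axis, ± SE) for the 21 pairs (y axis) and Icam1, Itgal, Itga4 and Itga5; blue points passed an adjusted p of 0.05 and grey points did not. All blue points lie below 0, and the lowest is Itgal with PAM + LPS at −2.83.

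Three-way interactions, what remains of a triplet after its single effects and pair interactions are taken off, were all positive where called. There were 7 of 35 for Itgal, 6 for Itga4 and 3 for Icam1, where 0.803% of all gene comparisons were positive and 0.13% negative. The largest were 2.49 (SE 0.41, adjusted p 6.6e-07) for Itgal with PAM + LPS + CpGB, 2.20 (SE 0.51, adjusted p 0.0055) for Itga4 with PAM + SeV + CpGB and 1.79 (SE 0.35, adjusted p 0.0005534) for Icam1 with PAM + LPS + cGAMP, all by edgeR. With PAM + LPS + CpGB, Itgal was 421, 452 and 471 CPM, below every library with PAM, CpGB, PAM + CpGB or LPS + CpGB and overlapping those with LPS and PAM + LPS. Adding LPS to PAM + CpGB lowered it from 690 to 448 CPM (log2 difference −0.62, SE 0.17, adjusted p 0.003486 by edgeR). Both kinds of interaction take in the Ctrl libraries with a sign opposite to each other. Over the 3 genes, the 16 calls became 12, 9 and 6 without replicate 1, 2 or 3 of all groups, and 1 when all libraries were thinned to the smallest total; the pair interactions, 36 in all, became 12 when thinned. Both counts stayed within 1.5-fold when any 1 Ctrl library was left out.

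Of the variance of log2 CPM over all libraries, 92.8% lay between groups for Itgal, 89.0% for Icam1, 87.4% for Itga4 and 80.9% for Itga5. The share was 70.6% for Itgax, 70.5% for Itgb2, 65.4% for Itgav and 46.1% for Itgam, against a median of 50.4% over all tested genes. Across the 64 group means, which share ligands and a common scaling, Itgal and Itga5 had a Pearson correlation of 0.886, Itgax and Itgb2 of 0.727, Itgam and Itgb2 of 0.629, Itga4 and Icam1 of 0.639, and Itga4 and Itgb2 of −0.647. Itgal and its partner chain Itgb2 had a correlation of −0.159, and Itgal and Icam1 of 0.469.

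In a search of 2628 genes whose mean level reached 50 CPM, the closest in pattern to Itgal over the 64 groups were Fpr1, a formyl peptide receptor (r = 0.938), Cpd and Mtpn (both 0.928). Itga5 was closest to Lad1 (0.919), Abracl (0.912) and Ehd1 (0.898). Icam1 was closest to Ikzf1 and Sfpi1, which code for the transcription factors Ikaros and PU.1 (0.815 and 0.801), and to Ccdc50 (0.769). Itga4 was closest to Marcksl1 (0.835), Lacc1 (0.822) and Dse (0.810). Among the closest to Itgb2 were Alas1 (0.840) and Fermt3, the kindlin that activates beta-2 integrins (0.821). Itgax was closest to Ptpre (0.828), Abcc1 (0.818) and the proton channel gene Hvcn1 (0.812). The patterns of Itgav and Itgam had no neighbour above 0.758 and 0.702: Pdpn (podoplanin), Car4 and Igsf8 for Itgav, and Dusp3, Igf1 and the scavenger receptor gene Cd36 for Itgam.

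The other genes of integrin adhesion, a list of 44 that holds other chains, activators and adaptors, ligands and other adhesion molecules, held 26 that could be tested. Of these, 8 were called higher and 2 lower with LPS, 6 and 2 with PAM, 6 and 3 with CpGB, 6 and 0 with SeV, 5 and 3 with cGAMP, 1 and 1 with Zymosan and 0 and 0 with HMW. These counts stand beside the shares of all tested genes given above for each ligand, such as 4.43% higher with Zymosan and 9.6% lower with LPS, and were not tested against them. The median log2 fold change of the 26 was 0.35 with LPS and 0.37 with CpGB, beside −0.06 and −0.03 over all tested genes. The largest rise with CpGB was that of Lyn, a Src-family kinase that signals in myeloid cells, from 144 ± 41.1 to 594 ± 121 CPM. Vcam1, a ligand of alpha-4 integrins, was at 0 UMIs in Ctrl and led with LPS (46 UMIs), cGAMP (10) and SeV (9). With Zymosan the only rise was that of Vcl, the gene of the adaptor vinculin, to 99.1 ± 24.0 CPM (log2 fold change 1.39, SE 0.48).

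The falls named Itgb5, a beta partner of alpha-V, with PAM (29.2 ± 19.8 CPM), LPS (50.9 ± 6.81 CPM) and CpGB (26.1 ± 23.6 CPM), from 143 ± 31.9 CPM in Ctrl. Itgb5 was also called lower with cGAMP, with a mean of 58.5 ± 13.8 CPM (−1.25 against Ctrl on the log2 scale, SE 0.43, adjusted p 0.02146 by edgeR). With cGAMP the largest fall was that of Apbb1ip, the adaptor RIAM, to 16.8 ± 15.9 CPM (log2 fold change −2.13, SE 0.57). With Zymosan it was that of Cytip, to 45.2 ± 8.86 CPM (log2 fold change −1.40, SE 0.45). Itgb1, the usual partner of alpha-4 and alpha-5, was called higher with PAM alone, from 190 ± 34.9 to 407 ± 39.5 CPM. The remaining 18 genes of the list were too low to test; they include Itgad, the last alpha partner of Itgb2, with 1 UMI over all libraries, and Itgb7, the other partner of alpha-4, with 183.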

How the data were processed

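RNA was measured in 192 libraries of mouse bone marrow-derived dendritic cells. The deposited values are whole-number UMI counts per gene symbol, made by the authors without normalization. Per the labels' protocols, RNA was reverse transcribed with template switching, cDNA was pooled before amplification and libraries were tagmented. The submitters' processing notes name BWA 0.7.15 and the build mm10; the annotation, the rule for collapsing UMIs, the use of strand and the treatment of multi-mapping reads are not given in the sources used here.

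Genes were kept by filterByExpr (4720 of 23481, 95.7% of UMIs). With R 4.3.3 and edgeR 4.0.16, one quasi-likelihood model with TMM factors and 1 coefficient per group was fitted to all libraries (128 residual degrees of freedom, biological coefficient of variation 10.3%), and p-values were adjusted by Benjamini-Hochberg within each contrast. TMM factors of the Ctrl libraries were 1.27 throughout, against 0.837 to 1.25 elsewhere. Interactions and average effects had no fold minimum. CPM are given as mean ± SD; correlations used group means of log2 CPM with a prior count of 2. Library totals of 46564 to 610234 UMIs limit precision for Itga5, Itgav and Itga4 in Ctrl (10, 14 and 16 UMIs). The fit was tested on simulated counts.

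No columns were identical. Same-numbered libraries did not deviate together on average (mean correlation 0.00828), so replicate numbers were not used as pairs. What the numbers stand for is not given in the labels. The members, the pathway list and the cell type markers were chosen with earlier results of these data known. The named genes are the members, the 3 genes closest in pattern to each, and the pathway gene with the largest called rise and fall per ligand; Itgb1, Itgb7, Itgad, the cell type markers and Itgb5 with cGAMP were named after their values were seen. Alternatives changed the normalization, the filter, the tool (DESeq2 1.42.0), the depth, the call rule and the libraries used. A few results that the rule for named genes would have included are not reported here.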

Additional observations from a re-analysis of the deposited data

How the results depend on the processing

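Normalization, filter, tool, depth, call rule and the libraries used were varied 1 at a time. Of the 17 single-ligand calls, 12 held in every setting run, and 5 (Icam1 with PAM, SeV, cGAMP and CpGB, Itgam with LPS) fell short of the 2-fold minimum or of the adjusted p in at least 1; none of the 17 changed sign. Of the 38 average effects called, 22 held throughout, and 1 changed sign: Itga4 with PAM, 0.12, became −0.0046 with library size alone. Of the values that were not called, 18 single-ligand and 6 average effects changed sign in at least 1 setting. The cause of these changes was not tested.

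Without a fold minimum, member calls went from 71 to 107 over the pairs and from 122 to 197 over the triplets, and 1 member pair lay below both single ligands in place of 0; library size alone also gave 1. With an effect of at least 0.5 required, the 38 average effects became 10. With at least 2-fold required, the Zymosan steps that lowered Icam1, Itgal and Itga4 became 5, 6 and 3. The Itga4 steps were 7 with no filter on low counts, where more genes enter the adjustment. With libraries thinned to the smallest total, pair interactions were 12, three-way interactions 1 and Itga4 steps 4, with 1848 genes tested. Leaving out libraries gave ranges of 16 to 19 calls for single ligands, 63 to 72 for pairs, 107 to 124 for triplets, 31 to 38 for average effects, 27 to 39 for pair interactions, 6 to 18 for three-way interactions, 14 to 16 for the Icam1 steps, 11 to 14 for the Itgal steps and 4 to 12 for the Itga4 steps. The Zymosan steps and the run without replicate 2 of Zymosan + SeV, the shallowest library, were chosen after seeing the data.

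The fit with the replicate block gave 17, 71 and 122 calls for single ligands, pairs and triplets, 39 average effects, 37 pair and 16 three-way interactions, and moved no count by over 1.5 times. The deviations of same-numbered libraries had a mean correlation of 0.00828 (−0.293 to 0.18), beside −0.00413 for differently numbered ones. This cannot show whether a number marks a shared batch or culture, which the labels do not say. Depth went with the number in part, as replicate 1 was the shallowest library in Ctrl (61823, 68941 and 89530 UMIs) and with every single ligand.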
